A study of Mus musculus with 3 samples.

Results

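The Alb, Afp and Afm locus is a stretch of mouse chromosome 5 that carries the genes for albumin, alpha-fetoprotein and afamin side by side on the plus strand. Its members are the HNF4A and FOXA2 peaks chosen by position, from 90800000 to 91000000 in the mm9 build, and the locus itself was proposed with the density of its peaks already known. It held 32 peaks of 21041 in both lists, namely 18 of 11703 HNF4A peaks and 14 of 9338 FOXA2 peaks. Peaks were mapped by chromatin immunoprecipitation with sequencing in hepatoblasts, the fetal liver progenitors, from wild-type C57BL/6 embryos at embryonic day 14.5. Livers were pooled and cells enriched magnetically for the surface protein DLK1, and no group received a treatment. The design had 3 libraries, 1 with an antibody to HNF4A, 1 with an antibody to FOXA2 and 1 of input chromatin, so that no value below has a replicate and none is tested. The files used here hold no RNA values, so the purity of the sorted cells and the activity of the genes were not analysed here.

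Albumin is the main protein of adult plasma, and alpha-fetoprotein is its fetal counterpart, made by the embryonic liver and yolk sac and silenced around birth. Afamin is a related plasma protein that carries vitamin E and Wnt proteins. The genes arose by duplication and share distal enhancers: the enhancers upstream of Afp act on Alb as well, and Alb has an upstream enhancer of its own that has long served as a model for how FOXA proteins open liver chromatin. HNF4A is a nuclear receptor that binds direct repeats and is needed for hepatocyte gene expression. FOXA2 belongs to the forkhead family and can bind DNA on nucleosomes.

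The promoter sequences are shown because HNF4A or FOXA2 peaks covered those of Alb and Afp and none covered that of Afm. Each runs 5′ to 3′ from 250 bases before the start annotated by RefSeq, on the plus strand of GRCm38.p6, a later build than that of the peaks, and holds 300 bases. Capitals mark exact matches on either strand to letters of HNF4A (CAAAGTCC or CAAAGGTC or CAAAGTTC), FOXA (TGTTTAC or TATTTAC or TGTTTGC or TGTTTGT), HNF1 (the core letters GTTAAT), C/EBP (TTGCNNAA), NF-Y (CCAAT) and the TATA box (TATAAA or TATATA).
Alb promoter, GRCm38.p6 chr5:90460620-90460919: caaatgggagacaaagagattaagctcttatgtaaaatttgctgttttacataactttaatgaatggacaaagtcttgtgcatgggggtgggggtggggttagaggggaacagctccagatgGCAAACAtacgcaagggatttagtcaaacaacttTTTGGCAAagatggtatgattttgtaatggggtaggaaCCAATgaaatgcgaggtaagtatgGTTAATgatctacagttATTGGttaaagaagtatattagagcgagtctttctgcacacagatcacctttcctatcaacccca
Afp promoter, GRCm38.p6 chr5:90490464-90490763: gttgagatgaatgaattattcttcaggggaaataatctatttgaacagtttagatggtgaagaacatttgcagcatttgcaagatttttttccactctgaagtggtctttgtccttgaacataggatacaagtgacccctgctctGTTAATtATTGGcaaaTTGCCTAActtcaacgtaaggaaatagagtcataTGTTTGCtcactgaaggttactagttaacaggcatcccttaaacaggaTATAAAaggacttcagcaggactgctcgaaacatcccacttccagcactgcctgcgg
Afm promoter, GRCm38.p6 chr5:90518699-90518998: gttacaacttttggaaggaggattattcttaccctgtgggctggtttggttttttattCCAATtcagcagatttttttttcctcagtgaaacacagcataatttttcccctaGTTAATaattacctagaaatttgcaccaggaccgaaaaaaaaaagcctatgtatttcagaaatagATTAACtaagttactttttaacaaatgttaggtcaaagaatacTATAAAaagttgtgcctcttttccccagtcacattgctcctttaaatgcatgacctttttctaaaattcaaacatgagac

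HNF1 core letters were the only ones besides CCAAT that stood in all of these promoters. HNF1 factors are homeodomain proteins of liver, and the core of their site began 32 bases before the annotated start of Alb and 105 before that of Afp. The Afm promoter held a pair of them, on opposite strands, beginning 138 and 73 bases before the start. Among all 32851 RefSeq promoters of this length, 7.1% held these letters. FOXA letters (TGTTTGC) were found in Alb, on the minus strand from 128 to 122 bases before the start, and in Afp, from 55 to 49 bases before it. Of all promoters, 16.7% held at least 1 of the FOXA strings. C/EBP letters, for a family of leucine zipper factors, were found in the same promoters, at 94 to 87 bases before the Alb start and 89 to 82 before the Afp start, against 10.8% of all promoters. CCAAT stood in 2 places in Alb and in 1 place each in Afp and Afm, against 37.4% of all promoters. It is short, and in Afp it began 2 bases after the last base of the HNF1 core. TATAAA stood in Afp, from 7 to 2 bases before the annotated start, and in Afm, from 30 to 25 bases before it, against 17.1% of promoters with either TATA string. None of the listed HNF4A strings was found in these windows, and 3.57% of all promoters held at least 1 of them. Only exact strings were searched, so other forms of an HNF4A site were not looked for. A match is a description of letters, not of occupancy.

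**Figure D1:**
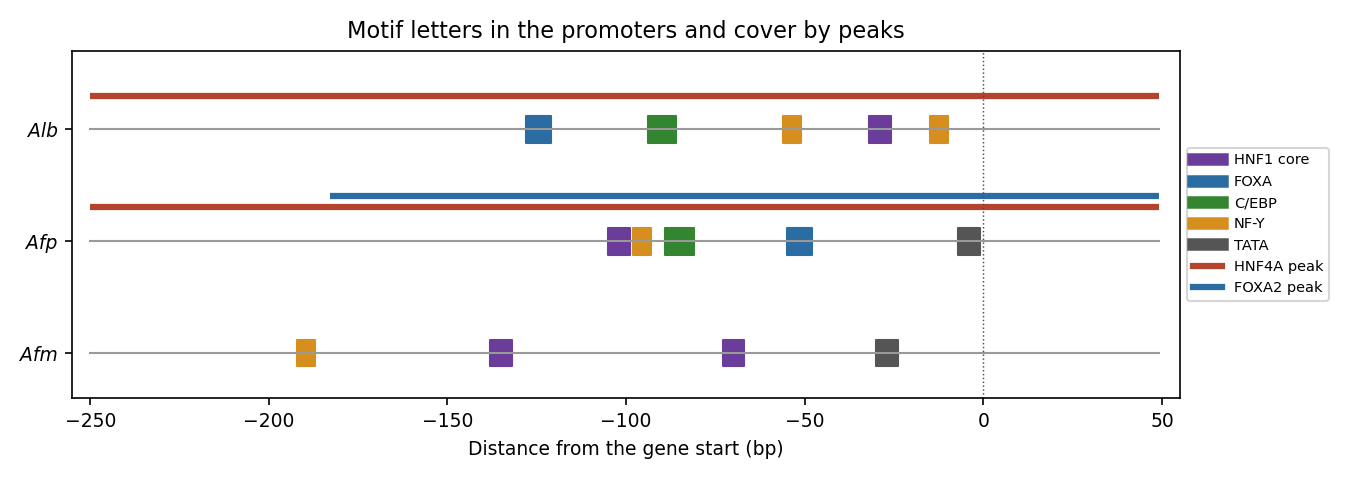
Motif letters in the promoters of Alb, Afp and Afm (boxes, coloured by factor family), by distance in bp from the annotated start, with horizontal bars above each line where HNF4A or FOXA2 peaks lie relative to the mm9 start rounded to 100 bp. An HNF4A bar spans all of the Alb and Afp windows, a FOXA2 bar spans part of the Afp window, and the Afm window has no bar.

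Every peak in the locus is described below in the order of the genes. The score is the authors' whole number for a peak. It is compared within a list only, by rank, where rank 1 is the highest score and tied peaks share a rank. Distances run from a peak's centre to the mm9 gene starts, taken as 90889900 for Alb, 90919700 for Afp and 90948000 for Afm and known to about 100 bp. A pair is an HNF4A and a FOXA2 peak that overlap by at least 1 bp.

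Upstream of Alb lay 6 HNF4A peaks, scored 18 to 80, counting the peak of score 18 that covered the Alb start. There were 4 FOXA2 peaks, scored 12 to 49, and 3 peaks of each factor formed pairs. The strongest HNF4A peak of the locus was among them, at 90876610 to 90877010, with score 80 and rank 163. It lay 13.1 kb upstream of Alb, 42.9 kb upstream of Afp and 71.2 kb upstream of Afm. Its FOXA2 partner at 90876607 to 90876982 had score 37 and rank 722, and their centres were 15 bp apart, the smallest distance of any pair in the locus. Both peaks were therefore high in their lists, with 98.5% of HNF4A peaks and 91.7% of FOXA2 peaks scoring lower.

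A second strong pair stood farther from Alb. HNF4A at 90868186 to 90868555 had score 57 and rank 630, and lay 21.5 kb upstream of Alb, 51.3 kb upstream of Afp and 79.6 kb upstream of Afm. FOXA2 at 90868235 to 90868584 had score 49 and rank 338, with its centre 39 bp away. This was the pair in which both scores stood highest in their lists at once, above 94.3% of HNF4A and 96.1% of FOXA2 peaks. The most distal pair on this side had lower scores: HNF4A at 90860052 to 90860495 with score 36 and rank 2341, and FOXA2 at 90860193 to 90860579 with score 26 and rank 1588. It lay 29.6 kb upstream of Alb, 59.4 kb upstream of Afp and 87.7 kb upstream of Afm, and its centres were 112 bp apart.

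Single-factor peaks upstream of Alb were mainly HNF4A. The first peak inside the window was HNF4A at 90843248 to 90843852, with score 44 and rank 1393, at 46.4, 76.2 and 104.5 kb upstream of Alb, Afp and Afm. FOXA2 had 1 single peak here, at 90854105 to 90854541, with score 12 and rank 6595, at 35.6, 65.4 and 93.7 kb upstream. That score is the second lowest value in the FOXA2 list. The stretch from 8 to 11 kb upstream of Alb, where the enhancer of that gene is known, held 1 HNF4A peak and 0 FOXA2 peaks. The HNF4A peak was at 90878945 to 90879461, with score 37 and rank 2204, and its centre was 10.7 kb upstream of Alb, 40.5 kb upstream of Afp and 68.8 kb upstream of Afm. The nearest FOXA2 centre was 2408 bp away and belonged to the pair described first. Each list ends at a threshold of unknown depth, so a missing peak does not show that the factor was not bound.

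**Figure D2:**
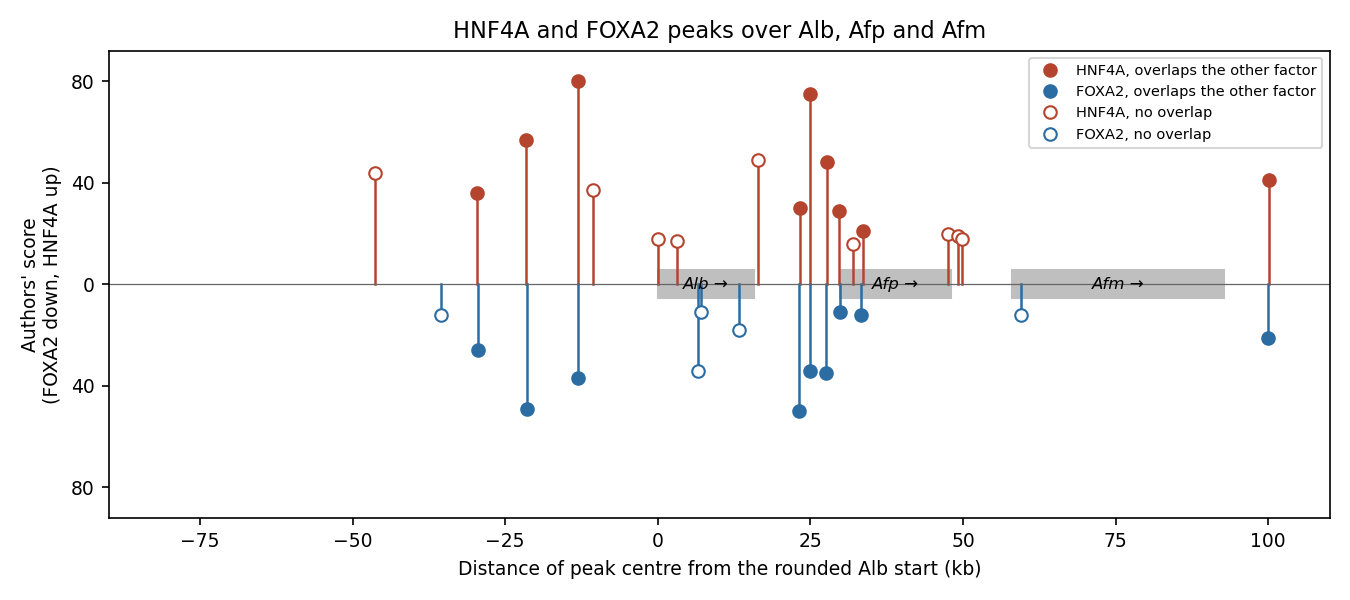
Peaks of the locus by distance in kb from the rounded Alb start, with the authors' score of HNF4A peaks drawn upward and of FOXA2 peaks downward, filled circles for peaks that overlap the other factor and open circles for those that do not, and gene bodies as grey bars with arrows in the direction of transcription. High filled circles stand 13.1 and 21.5 kb upstream of Alb and in the gap between Alb and Afp, while circles over the gene bodies are low or open; heights are comparable within a factor only.

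The Alb start was covered by 1 HNF4A peak of low score and by no FOXA2 peak. HNF4A at 90889546 to 90890154 had score 18 and rank 8703, so that 18.4% of the list scored lower, and its centre was 50 bp upstream of the Alb start, 29.9 kb upstream of Afp and 58.1 kb upstream of Afm. It covered all 300 bases of the promoter window, as placed from the rounded start. Because that start is known to about 100 bp, the 50 bp and the side of the start lie within its error. The nearest FOXA2 centre to the Alb start was 6538 bp into the gene. The promoter peak of Alb thus ranked far below the pairs 13.1 and 21.5 kb upstream.

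No peak centred within the Alb gene had a partner. Unpaired peaks are common, since over the whole lists 24.4% of HNF4A and 30.7% of FOXA2 peaks had one. HNF4A had 1 further peak, at 90892761 to 90893443 with score 17 and rank 9551, at 3.2 kb downstream of the Alb start and 26.6 and 54.9 kb upstream of Afp and Afm. FOXA2 had 3 peaks, of which that at 90896235 to 90896642 scored 34, with rank 887, and lay 6.5 kb into the gene, 23.3 kb upstream of Afp and 51.6 kb upstream of Afm. It was the only single FOXA2 peak in the locus to reach the top 10% of the FOXA2 list. A narrow neighbour at 90896831 to 90897037 had the lowest score of the list, 11 (rank 7797), at 7.0 kb into Alb and 22.8 and 51.1 kb upstream of Afp and Afm. The third, at 90902936 to 90903508, scored 18 with rank 3197 and lay 13.3 kb into Alb, 16.5 kb upstream of Afp and 44.8 kb upstream of Afm. In and just behind Alb, centres lay 3026 to 3832 bp from the nearest centre of the other factor. Just past the gene, 0.6 kb after its end, stood the highest HNF4A peak without a partner, at 90905893 to 90906604 with score 49 and rank 1020. It lay 16.3 kb downstream of the Alb start and 13.5 and 41.8 kb upstream of Afp and Afm.

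Both factors were found together in the stretch 1 to 8 kb upstream of Afp, where enhancers of that gene are known. It held 3 HNF4A and 3 FOXA2 peaks, and each HNF4A peak overlapped a FOXA2 peak. The pair in the middle had the second highest HNF4A score of the locus: HNF4A at 90914643 to 90915019 scored 75 with rank 218, and FOXA2 at 90914657 to 90914955 scored 34 with rank 887. The HNF4A centre lay 4.9 kb upstream of Afp, 24.9 kb downstream of the Alb start and 33.2 kb upstream of Afm, and the FOXA2 centre was 25 bp away. The FOXA2 peak lay wholly inside the HNF4A peak.

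The pair farthest from Afp in this stretch had the highest FOXA2 score of the locus. FOXA2 at 90912931 to 90913264 scored 50 with rank 315, above 96.4% of its list. Its HNF4A partner at 90913046 to 90913473 scored 30 with rank 3429, above 68.6% of its list. The order of the factors was thus the reverse of that in the middle pair, where 98.0% of HNF4A and 89.8% of FOXA2 peaks scored lower. The HNF4A centre was 6.4 kb upstream of Afp, 23.4 kb downstream of the Alb start and 34.7 kb upstream of Afm, with the FOXA2 centre 162 bp away. Closest to Afp, HNF4A at 90917274 to 90917852 scored 48 with rank 1096 and FOXA2 at 90917287 to 90917759 scored 35 with rank 829. Their centres were 40 bp apart, and the HNF4A centre lay 2.1 kb upstream of Afp, 27.7 kb downstream of the Alb start and 30.4 kb upstream of Afm. Here both peaks stood at nearly the same place in their lists, above 90.1% and 90.5% of peaks.

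**Figure D3:**
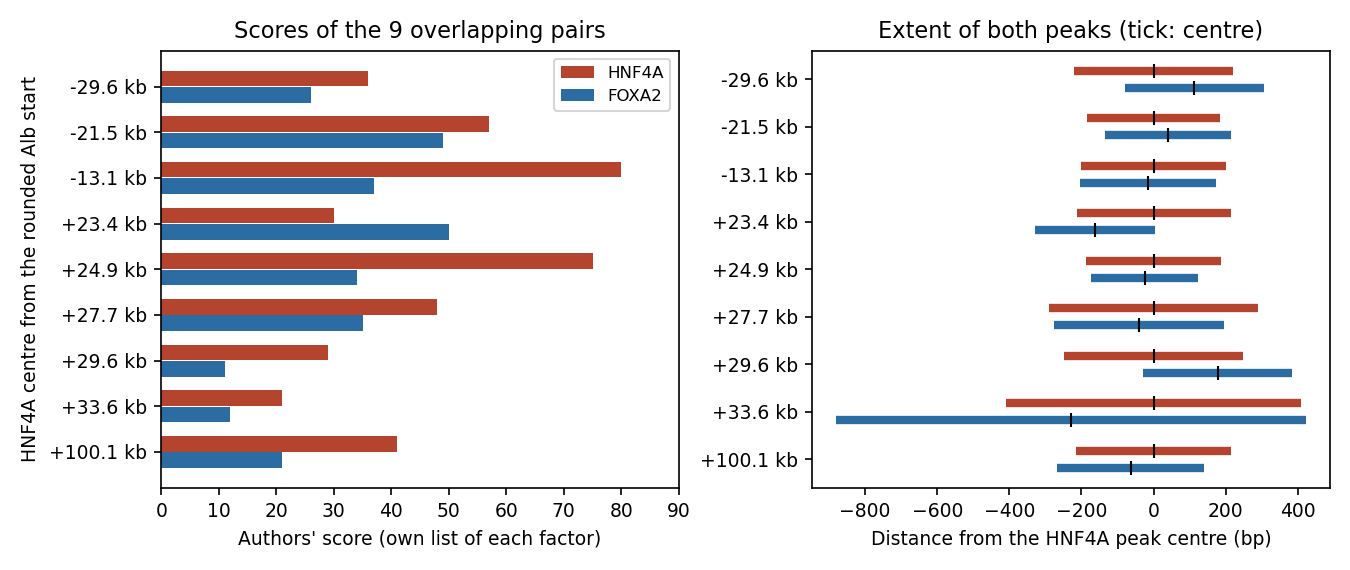
The 9 overlapping pairs, ordered along the chromosome and named by the distance of the HNF4A centre from the rounded Alb start: on the left the authors' score of each factor in its own list, on the right the extent of both peaks in bp from the HNF4A centre, with ticks at the centres. HNF4A scores range from 21 to 80 and FOXA2 scores from 11 to 50, and 5 pairs have centres within 100 bp.

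At the Afp start both factors had a peak, unlike at the Alb start. HNF4A at 90919297 to 90919793 scored 29 with rank 3681, and its centre was 155 bp upstream of Afp, 29.6 kb downstream of the Alb start and 28.5 kb upstream of Afm. It covered all 300 bases of the promoter window, as placed from the rounded start, and ran 44 bp past the window on the gene side. FOXA2 at 90919517 to 90919930 scored 11, the lowest value of its list (rank 7797). Its centre was 23 bp downstream of the Afp start and 178 bp from the HNF4A centre. It left 67 bases at the far end of the promoter window uncovered. The rounded start itself was covered by both peaks. Because that start is known to about 100 bp, the 23 bp, the side of the start, the 44 bp and the 67 bases lie within its error.

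Inside Afp the scores were low. HNF4A at 90921492 to 90922264 had the lowest score of the HNF4A list, 16 (rank 10522), and no partner. It lay 2.2 kb into Afp, 32.0 kb downstream of the Alb start and 26.1 kb upstream of Afm. A broad pair followed, with HNF4A at 90923051 to 90923870 (score 21, rank 6654) inside FOXA2 at 90922579 to 90923884 (score 12, rank 6595). The HNF4A centre was 3.8 kb into Afp, 33.6 kb downstream of the Alb start and 24.5 kb upstream of Afm. At 1306 bp the FOXA2 peak was the widest of the locus, against a median of 367 bp over the FOXA2 list, and the centres were 229 bp apart, the largest distance of any pair in the locus.

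Around the Afp end stood 3 HNF4A peaks without FOXA2. That at 90937272 to 90937590 scored 20 with rank 7251, and its centre was 469 bp before the end of Afp. It was 47.5 and 17.7 kb downstream of the Alb and Afp starts and 10.6 kb upstream of Afm. Those at 90938728 to 90939438 (score 19, rank 7915) and 90939466 to 90939926 (score 18, rank 8703) were separated by 27 bp and lay 1.2 and 1.8 kb past the gene. Their centres were 49.2 and 49.8 kb downstream of the Alb start, 19.4 and 20.0 kb downstream of the Afp start, and 8.9 and 8.3 kb upstream of Afm. The nearest FOXA2 centres to this group were 9695 to 11960 bp away.

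Afm, the longest of the genes at 34.6 kb, had the fewest peaks. No peak of either factor covered its start, and no HNF4A peak was centred in its body. The single FOXA2 peak there, at 90949210 to 90949573, scored 12 with rank 6595 and lay 1.4 kb into Afm, 29.7 kb downstream of the Afp start and 59.5 kb downstream of the Alb start. Behind Afm, 7.4 kb past its end, stood the last pair of the window. HNF4A at 90989755 to 90990187 scored 41 with rank 1709, and FOXA2 at 90989704 to 90990111 scored 21 with rank 2396, with centres 63 bp apart. The HNF4A centre was 42.0, 70.3 and 100.1 kb downstream of the Afm, Afp and Alb starts. RefSeq places Albfm1 as the next protein-coding gene after Afm and Ankrd17 as the one before Alb, in the GRCm38.p6 assembly, and the mm9 positions of these neighbours were not used here. The gap of 40.1 kb before this pair was the longest between neighbouring sites of the locus.

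Counted together, overlapping peaks merged into 23 sites, of which 9 held both factors, 9 HNF4A alone and 5 FOXA2 alone. Sites covered 12633 bp, or 6.32% of the window. Of the HNF4A peaks in the locus, 9 of 18 or 50.0% overlapped FOXA2, against 24.4% of the whole HNF4A list. Of the FOXA2 peaks, 9 of 14 or 64.3% overlapped HNF4A, against 30.7% of the whole FOXA2 list. These shares describe a locus proposed from the same lists, and no test was made of them. Centres of the 9 pairs were a median of 63 bp apart, from 15 to 229 bp, against 58.5 bp for all HNF4A peaks with a FOXA2 partner. With both centres within 100 bp there were 5 of 9 pairs, against 73.0% over the whole list.

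HNF4A scores in the locus had a median of 33 (interquartile range 19.25 to 47), against 23 (18 to 33) over the whole list. FOXA2 scores had a median of 23.5 (12 to 34.75), against 15 (12 to 22). The top 10% of the HNF4A list began at score 47 and, with ties, held 10.6% of peaks; 5 of the 18 in the locus were in it. They were those 21.5 and 13.1 kb upstream of Alb, that 0.6 kb behind Alb, and those 4.9 and 2.1 kb upstream of Afp. The top 10% of the FOXA2 list began at score 34 and held 10.2% of peaks; 6 of the 14 were in it. They were the partners of 2 pairs upstream of Alb and of all 3 pairs upstream of Afp, and the single peak 6.5 kb into Alb. No peak at a gene start was in either group. The ranges were wide, since 7 HNF4A peaks scored below the median of their list and the FOXA2 peaks included 2 at the lowest score of 11.

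**Figure D4:**
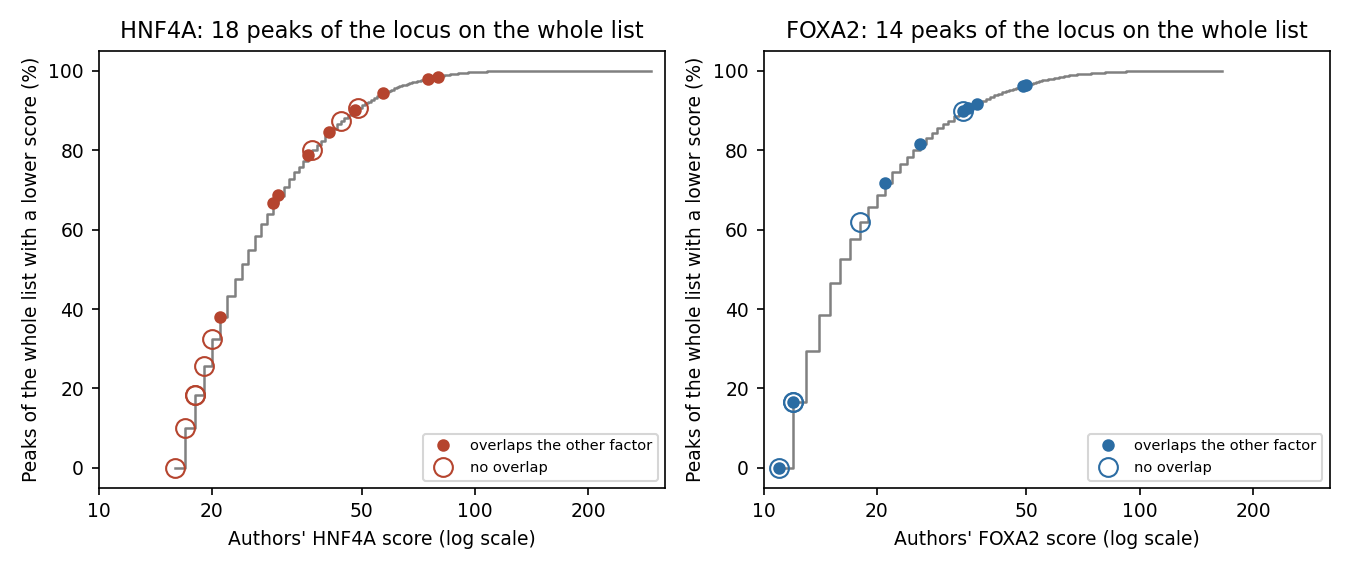
Peaks of the locus on the whole HNF4A list (left) and FOXA2 list (right), with the authors' score on a log axis and the percentage of peaks in that list with a lower score; small filled circles overlap the other factor and large open circles do not, and tied peaks coincide. Of the HNF4A circles, all below score 21 are open, and the highest, at 80, lies above 98.5% of the list; the highest FOXA2 circle, at 50, lies above 96.4%.

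Paired peaks in the locus had higher scores than single ones, as over the whole lists. The 9 paired HNF4A peaks scored 21 to 80 with a median of 41, and the 9 single ones 16 to 49 with a median of 19. Over the whole HNF4A list the medians were 27 for paired and 22 for single peaks. Paired FOXA2 peaks scored 11 to 50 with a median of 34, and the 5 single ones 11 to 34 with a median of 12, against 19 and 14 over the whole FOXA2 list. The groups overlapped in both lists. Peaks were a median of 507 bp wide for HNF4A (319 to 820 bp) and 397.5 bp for FOXA2 (207 to 1306 bp), against 430 and 367 bp over the lists.

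The locus coincides with 1 of the windows of 200 kb into which each chromosome was divided from its first base. Of 4711 windows with an HNF4A peak it held the most, 18, against a median of 2. It also held the most paired HNF4A peaks, 9, among 2037 windows with any, where the median was 1. For FOXA2, 12 of 4727 windows held more than its 14 peaks. All 12 of these also held input regions, and 9 of them had no HNF4A peak. Of all 6090 windows with a peak of either factor, 4711 had an HNF4A peak. The share of all windows with input regions is not given here, so these counts are a description only. With both factors added, 6090 windows had a peak, and only that on chromosome 1 from 90000000 to 90200000 held more than 32. The edges of these windows are those of the locus, and the locus was proposed with its density already known. Its place among the windows is therefore a description and was not tested. With windows shifted by 100 kb the locus was divided, its fuller window held 23 peaks, and 5 windows held more. That shift is given for both factors added, not for HNF4A peaks alone or for paired peaks. The window on chromosome 1 had 37 FOXA2 and 9 HNF4A peaks, 2 of the latter paired, and 14 input regions. Among windows without input regions, the next by number of peaks was on chromosome 12 from 104800000 to 105000000, with 12 HNF4A peaks, of which 3 were paired, and 10 FOXA2 peaks. The one after it, on chromosome 10 from 127000000 to 127200000, had 13 and 8, with 4 paired.

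**Figure D5:**
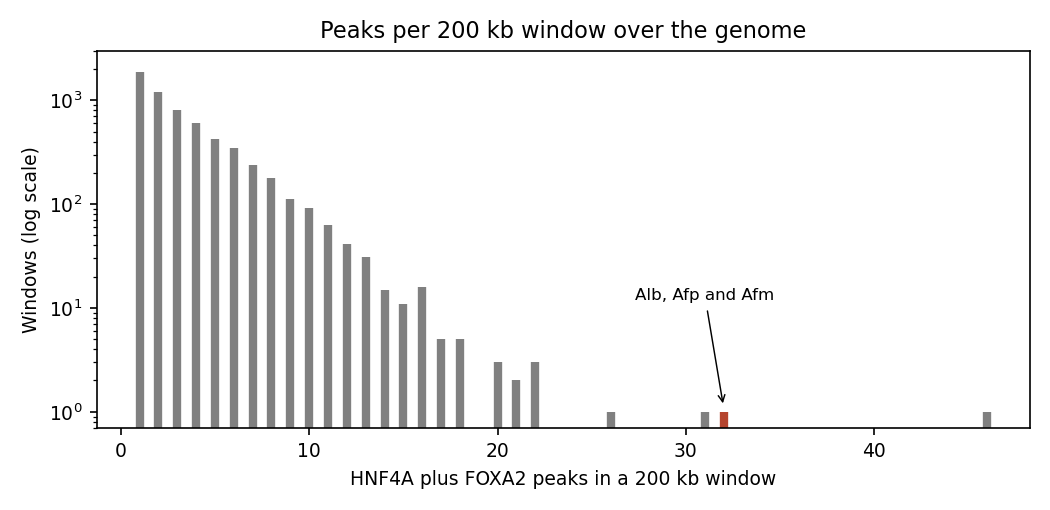
Number of windows of 200 kb (log axis) by their number of HNF4A plus FOXA2 peaks, over all 6090 windows with a peak, with the window of Alb, Afp and Afm in red. It stands at 32 peaks, with a window at 46 above it and most windows at 1 to 5.

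Input chromatin had 0 of its 1263 regions in the locus and 139 elsewhere on chromosome 5. The windows on chromosomes 12 and 10 named above also held 0, so this is not particular to the locus. The share of all windows without an input region is not given here. The nearest was 2882.4 kb outside the window and 2892.2 kb from any of the 32 peaks. At the edges, the last peaks before the window were FOXA2 at 90787065 to 90787396 (score 11), 12.6 kb outside, and HNF4A at 90706471 to 90706860 (score 20), 93.1 kb outside. After it came HNF4A at 91011139 to 91011519 (score 17), 11.1 kb outside, and FOXA2 at 91032291 to 91032668 (score 15), 32.3 kb outside. None of these 4 peaks had a partner, as was true of most peaks: 24.4% of the HNF4A list and 30.7% of the FOXA2 list were paired. The first and last peaks inside had scores of 44 (HNF4A, no partner) and 41 with 21 (the pair behind Afm).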

How the data were processed

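Chromatin of DLK1-enriched hepatoblasts was sequenced as 1 HNF4A, 1 FOXA2 and 1 input library. For each library the authors deposited a list of regions, each with a whole-number score. How the score was made, and with which aligner, caller and threshold, were details not given in the sources used here. Per the submitters' processing notes the genome build was mm9. Depth is unknown, no interval for it can be given, and scores were compared only within a list. Positions were read as 1-based with both ends included, and a closing line of the FOXA2 file without a region was skipped.

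Gene starts and ends in mm9 are rounded values given with the definition of the locus, not read from an annotation. Members and lists were chosen with earlier results of these data known. Peaks named in full are those of the highest 5 scores of each factor, those within 1 kb of a start, those in the enhancer stretches and those at the edges; the remainder were added to account for every member. Ranks, overlaps, distances, merged sites and counts per window were computed with Python 3.11.15, numpy 2.4.6 and pandas 2.3.3; plots used matplotlib 3.10.9. Overlap counting was checked on simulated data. Promoters are from RefSeq (GRCm38.p6), where all 3 genes matched by symbol; exact strings were searched on both strands. No genome of build mm9 was used, so no peak sequence was read. With 1 library per group no test was made.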

Additional observations from a re-analysis of the deposited data

How the results depend on the processing

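Of 37 values recomputed under alternative settings, all but 14 were counts within 1.5 times the reported count or equal to the reported value. Keeping only peaks at or above the median score of their list left 11 HNF4A and 9 FOXA2 peaks, with median scores of 44 and 34, and 7 pairs. Widening the window by 50 kb on each side gave median scores of 30 for HNF4A and 19.5 for FOXA2. Measured from 50 kb before Alb to 50 kb after Afm, the medians were 30 and 21. Requiring centres at most 100 bp apart left 5 paired peaks of each factor, in place of 9. Overlap of at least 50% of both peaks, edges at most 200 bp apart and 0-based positions each gave 9. Within 2 kb of the Afm start there was 1 FOXA2 peak, in place of 0 within 1 kb. Sites joined across gaps of up to 10 kb formed 5 clusters, the largest with 12 sites over 34.3 kb; gaps of 5 kb gave 11 clusters and gaps of 25 kb gave 2. With windows shifted by 100 kb the locus was divided, its fuller window held 23 peaks, and 5 windows in the genome held more, in place of 1. These changes follow from how each setting selects or divides peaks. No paired analysis was possible because each group has 1 library, and no library could be left out. Depth is unknown, so a factor without a peak at a start cannot be told apart from one under the threshold.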
